A study of Mus musculus with 32 samples.

Results

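The step from myeloid-biased multipotent progenitors (MPP3) to granulocyte-macrophage progenitors (GMPs) was compared in old mice, as 2 libraries of Aged MPP3 against 2 libraries of Aged GMP. These 4 libraries were chosen by their labels from the 32 of the series, which hold 8 hematopoietic fractions at each of 2 ages. All animals were female C57BL/6 mice, a common inbred strain, for which the labels name no transgene, deletion or treatment, and Aged mice were 20 months old. MPP3 were sorted from bone marrow as IL-7Rα- and Lin- cells that carried Sca-1, c-kit, CD34 and CD48 and lacked CD150 and Flt3. GMPs were sorted as IL-7Rα- and Lin- cells that lacked Sca-1 and carried c-kit, CD34 and Fcg receptors. Both are gates on surface antigens, so each may hold a mixture of cells at different stages. The marrow of several mice of 1 age was combined before it was sorted into 2 libraries per fraction, which may thus share 1 pool, so that errors and p-values cover only the spread between these libraries. Libraries of the same fractions from 10-week-old (Young) mice, and of Aged MPP2, MEP, MPP4 and CLP, were used to test whether the difference between Aged GMP and Aged MPP3 departed from 3 comparable steps. All 32 libraries also entered the fit that estimates the spread behind every SE and p, and levels in other fractions are given for a few genes.

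Granulocytes and macrophages arise from multipotent progenitors through a GMP stage. During this step the transcription factors PU.1 and the C/EBP family switch on receptors for myeloid cytokines and the enzymes of the primary (azurophil) granule, while factors that keep stem cells and multipotent progenitors undecided are switched off. Primary granule enzymes are made at the promyelocyte stage and earlier, and the proteins of the secondary granules follow only later in neutrophil maturation. Eosinophils, basophils and mast cells form further branches whose granules carry their own proteases and basic proteins.

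Each library held 13161206 to 14502768 counts, so that 3 counts, the level below which no fold is given, amounted to 0.201 to 0.268 CPM. CPM here are counts relative to library size, scaled by edgeR's TMM factors and are not divided by transcript length. Duplicates differed by a root mean square of 0.497 (MPP3) and 0.508 (GMP) on the log2 scale, and libraries of different fractions by 1.54 to 1.57. Of 14154 genes tested, 3030 (21.4%) were higher and 3138 (22.2%) were lower (43.6% in either direction) in Aged GMP at an adjusted p under 0.01 by edgeR's quasi-likelihood test, and the median log2 fold change of all genes was -0.0057. The libraries of the fractions did not overlap in 77.3% of genes tested. The count of higher genes was 1934 and 1824 without the first and second Aged GMP library and 1803 without the first Aged MPP3 library. Among called genes whose log2 fold change was 1 or more in size, 1013 were higher and 2009 were lower. The ribosomal precursor transcript Rn45s held 2.20% and 1.13% of counts in Aged MPP3 and 0.239% and 0.236% in Aged GMP, and its part in the results was not tested. The authors' normalized table names MPP3 and GMP columns in different styles. The labels give no batch, and if these styles mark separate preparations, preparation and fraction cannot be told apart.

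**Figure D1:**
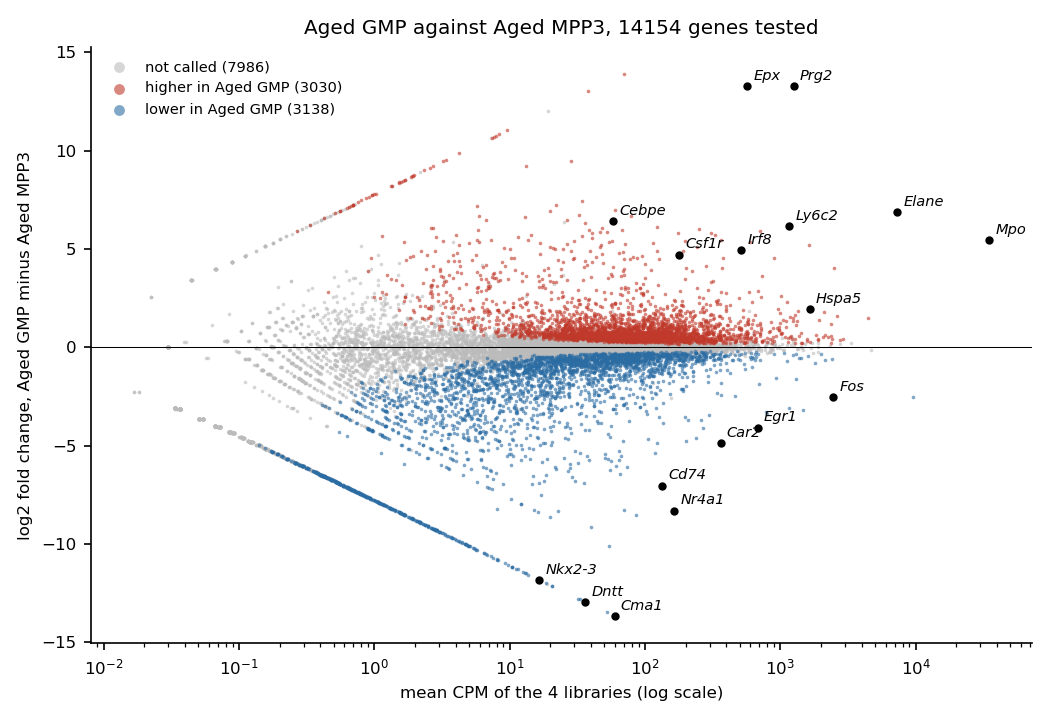
Each point is 1 of 14154 genes. The x axis is the mean CPM of the 4 libraries on a log scale and the y axis the fitted log2 fold change of Aged GMP over Aged MPP3, with genes at an adjusted p under 0.01 in red (3030 higher) or blue (3138 lower). Mpo and Elane lie far up at high levels, and the straight lower edge holds genes without a count in Aged GMP, whose fitted folds depend on the prior count and are given in the text only as bounds.

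The antigens that set the gates were read first, as a check of the labels and not as a finding. Fcgr3, which encodes an Fcg receptor of the GMP gate, stood at 8.24 and 6.78 CPM in Aged MPP3 and 489 and 497 CPM in Aged GMP. Fcgr2b, a further such receptor, stood at 17.2 and 14.3 CPM in Aged MPP3 and 149 and 161 CPM in Aged GMP. Ly6a, the Sca-1 gene absent from the GMP gate, stood at 213 and 196 CPM in Aged MPP3 and 13.2 and 3.03 CPM in Aged GMP. The mRNA of both gates' shared antigens differed too. Kit, the receptor for stem cell factor, fell by 0.99 (SE 0.11, adjusted p = 9.99e-08) and Cd34 fell by 1.55 (SE 0.11, adjusted p = 1.26e-10) on the log2 scale. Cd48 stood at 207 and 215 CPM in Aged MPP3 and 169 and 184 CPM in Aged GMP and did not pass the test (adjusted p = 0.0384), although it was called lower with DESeq2 (0.000326) and without Aged GMP replicate 2 (0.00824). Flt3 mRNA, whose protein is absent from the MPP3 gate, was at 167 and 209.7 CPM in Aged MPP3 and at 19.2 and 16.3 CPM in Aged GMP. Slamf1, which encodes CD150, was at 1.47 and 1.53 CPM in Aged MPP3 and at 0 in both GMP libraries, and Il7r was at or near 0 in all 4.

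The genes of the primary granule were all higher in Aged GMP: 9 of 9 tested passed the test, against 21.4% of all genes, with a median log2 fold change of 4.05. Mpo, which encodes the myeloperoxidase that makes hypochlorous acid from hydrogen peroxide, lies at chr11:87793581-87804413 (GRCm38, plus strand). It stood at 1592 and 1565 CPM in Aged MPP3 and 69119 and 67614 CPM in Aged GMP (a log2 fold change of 5.44, SE 0.46, adjusted p = 1.55e-09). Both GMP libraries were far above both MPP3 libraries, and Mpo alone held 5.87% (95% Wilson interval 5.86 to 5.88) and 5.65% (5.64 to 5.67) of all counts in them, against 0.164% (0.162 to 0.166) and 0.161% (0.159 to 0.163) in Aged MPP3. These intervals cover counting error only, since reads carried no molecular identifiers. Elane, the gene of neutrophil elastase, stood at 126 and 124 CPM in Aged MPP3 and 14025 and 15073 CPM in Aged GMP (a log2 fold change of 6.86, SE 0.46, adjusted p = 4.28e-11). It lies at chr10:79886247-79888215, and its neighbours Prtn3 (proteinase 3) and Prss57 (a further neutrophil serine protease) lie within the same 107 kb and moved the same way. Prtn3 rose from 289.6 and 281 CPM to 4516 and 4922 CPM (a log2 fold change of 4.05, SE 0.18, adjusted p = 3.51e-14). Prss57 rose from 56.8 and 53.3 CPM to 554 and 559.8 CPM (a log2 fold change of 3.34, SE 0.13, adjusted p = 8.46e-15). Ctsg, which encodes cathepsin G, rose from 91.8 and 80.3 CPM to 3047 and 3302 CPM (a log2 fold change of 5.20, SE 0.28, adjusted p = 1.09e-12). Ms4a3, a membrane protein gene of early granulocyte-monocyte cells, rose from 31.01 and 26.8 CPM to 1094 and 1256 CPM (a log2 fold change of 5.34, SE 0.29, adjusted p = 1.21e-12). The other 3 members rose less. Srgn, the core proteoglycan that holds granule contents, rose by 1.05, Serpinb1a, an inhibitor of elastase and proteinase 3, by 0.89, and Ctsc, the protease that activates granule serine proteases, by 0.72 on the log2 scale. The summed level of the 9 genes was 3418 and 3333 CPM in Aged MPP3 and 94603 and 95237 CPM in Aged GMP. In bulk samples fewer cells with a transcript and less of it per cell cannot be told apart.

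**Figure D2:**
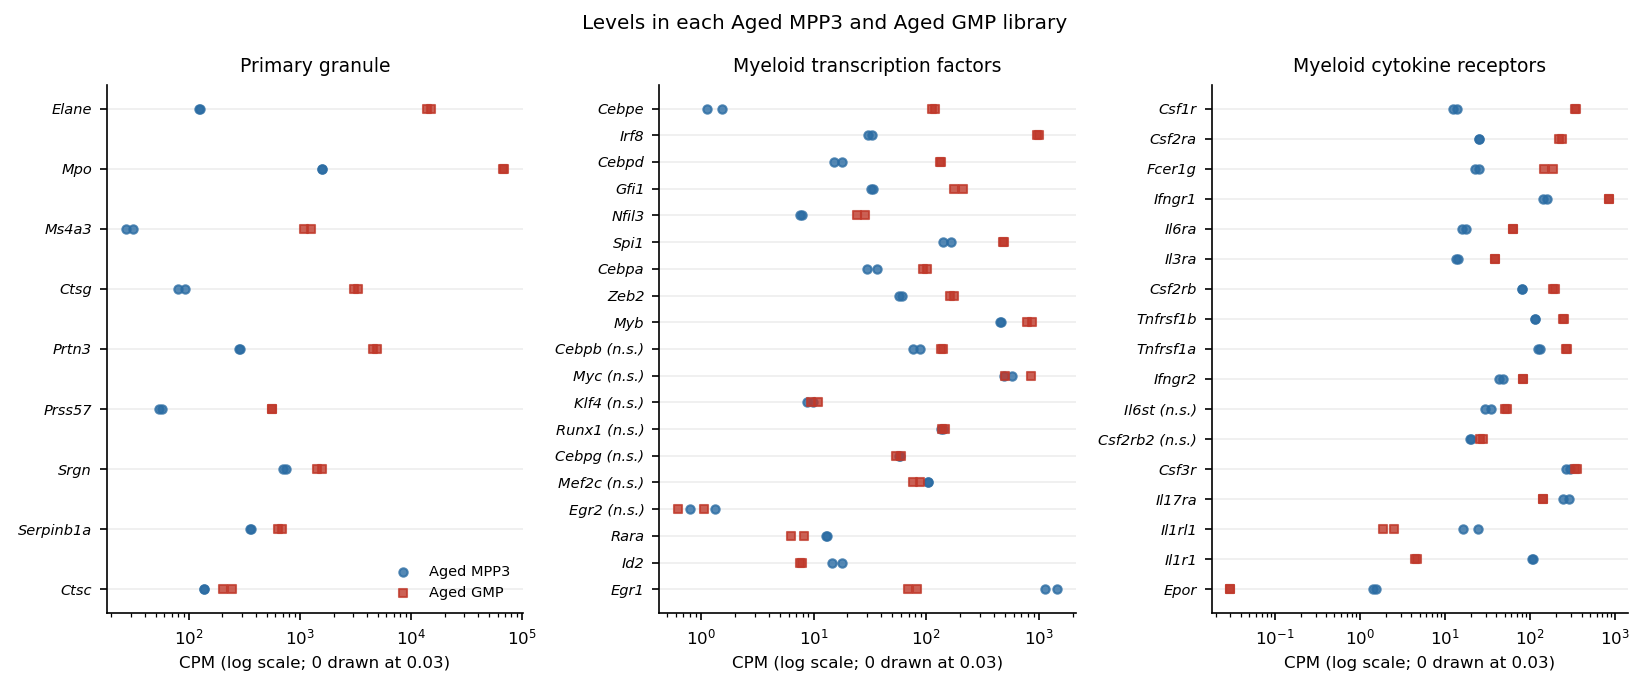
CPM (x axis, log scale, 0 drawn at 0.03) of each Aged MPP3 library (blue circles) and Aged GMP library (red squares) for members of 3 gene lists, ordered by log2 fold change; (n.s.) marks genes with an adjusted p of 0.01 or more. All 9 primary granule genes sit to the right in Aged GMP, while the transcription factors and receptors split between rises, falls and genes that did not pass.

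The bases before the start sites of these genes hold a core that PU.1 and other ETS factors read, and they are shown because the members moved together. Of the 9 genes, 7 have an entry in the RefSeq table (GRCm38.p6), and GGAAGT on either strand lies within 250 bases before the start of 7 of 7, against 22.2% of 27025 gene symbols. The C/EBP pattern TTNNGNAA was found in 2 of 7 (40.3% of all) and the MYB pattern AACGG in 2 of 7 (16.5% of all), namely Elane and Prtn3. Such a match is a description and not a binding site. In the stretches below, given 5′ to 3′ on the gene's strand, capitals mark GGAAGT. They span chr11:87793547-87793582 (plus) for Mpo, chr10:79886214-79886249 (plus) for Elane, chr10:79879559-79879594 (plus) for Prtn3 and chr14:56102759-56102794 (minus) for Ctsg. The starts used here are those of RefSeq, which for Mpo, Elane and Prtn3 lie downstream of the GENCODE gene starts. The Mpo and Elane stretches thus run past the gene starts printed above, and that of Prtn3 lies within its GENCODE gene.
Mpo: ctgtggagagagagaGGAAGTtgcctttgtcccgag
Elane: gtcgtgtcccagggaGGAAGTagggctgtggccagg
Prtn3: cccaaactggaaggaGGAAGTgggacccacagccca
Ctsg: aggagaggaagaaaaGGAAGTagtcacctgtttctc

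Among 19 transcription factors of the myeloid branch, 9 were higher and 3 were lower in Aged GMP, against 21.4% and 22.2% of all genes. The other 7 did not pass, and the median log2 fold change was 0.77. Cebpe, the C/EBP factor needed for granulocyte maturation, showed the largest rise of these, at 1.14 and 1.53 CPM in Aged MPP3 and 119 and 112 CPM in Aged GMP (a log2 fold change of 6.43, SE 0.35, adjusted p = 1.18e-12). Irf8, which directs monocyte and dendritic fate, stood at 30.7 and 33.2 CPM in Aged MPP3 and 971 and 1013 CPM in Aged GMP (a log2 fold change of 4.96, SE 0.15, adjusted p = 9.04e-17). Both were low in Aged MPP3 and their libraries lay far apart. Gfi1, a repressor that favours granulocytes, rose from 33.8 and 32.2 CPM to 212 and 175 CPM (a log2 fold change of 2.55, SE 0.19, adjusted p = 2.1e-10). Cebpd rose by 3.02 (SE 0.16, adjusted p = 8.43e-13), and Nfil3, a leucine zipper factor, by 1.78 (SE 0.22, adjusted p = 4.79e-07). The 2 factors held to start the programme were already present in Aged MPP3. Spi1, which encodes PU.1, went from 142 and 167 CPM to 481 and 491 CPM (a log2 fold change of 1.66, SE 0.09, adjusted p = 6.02e-13). Cebpa, which is needed to form GMPs, went from 36.6 and 29.7 CPM to 102 and 93.96 CPM (a log2 fold change of 1.56, SE 0.15, adjusted p = 1.16e-08). Zeb2 rose by 1.52 and Myb, which sustains proliferating progenitors, by 0.86 on the log2 scale. Egr1, an early response and monocyte factor, fell by 4.08 (SE 0.15, adjusted p = 3.21e-15), from 1126 and 1444 CPM to 69.00 and 83.01 CPM. Id2 fell by 1.06 and the retinoic acid receptor Rara fell by 0.85. Runx1 stood at 142 and 135 CPM in Aged MPP3 and 148 and 137 CPM in Aged GMP, and its libraries overlapped. Those of Klf4 did so too, at 8.78 and 9.99 CPM in Aged MPP3 and 9.49 and 11.04 CPM in Aged GMP. Myc stood at 492 and 573 CPM in Aged MPP3 and 846 and 501 CPM in Aged GMP, and its GMP duplicates lay further apart than its MPP3 duplicates. Its log2 fold change was -0.21 without Aged GMP replicate 1, and it was called higher without Aged GMP replicate 2 (adjusted p = 0.00855). Cebpb, Cebpg, Egr2 and Mef2c also did not pass (adjusted p = 0.309, 0.855, 0.645 and 0.0109), although Mef2c was called lower under 6 alternatives (adjusted p = 0.000161 to 0.00964). Cebpb, at 88.02 and 75.7 CPM in Aged MPP3 and 136 and 142 CPM in Aged GMP, was called higher with only the 4 libraries (adjusted p = 0.00102).

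Receptors for myeloid cytokines followed, with 11 of 18 higher, 5 lower and 2 that did not pass (median log2 fold change 0.97). Over all genes 21.4% were higher and 22.2% were lower, so the share of lower receptors was near that of all genes. Csf1r, the receptor for M-CSF that drives macrophage growth, stood at 13.7 and 12.4 CPM in Aged MPP3 and 337 and 348 CPM in Aged GMP (a log2 fold change of 4.71, SE 0.20, adjusted p = 2.97e-14). Csf2ra, the ligand-binding chain of the GM-CSF receptor, stood at 24.8 and 25.3 CPM in Aged MPP3 and 215 and 239 CPM in Aged GMP (a log2 fold change of 3.18, SE 0.12, adjusted p = 4.67e-15). Its signalling chain Csf2rb rose by 1.23 (SE 0.13, adjusted p = 6.82e-08). Csf2rb2 is a close copy of Csf2rb whose reads may have been divided between them, and it stood at 19.96 and 19.8 CPM in Aged MPP3 and 27.8 and 25.6 CPM in Aged GMP (adjusted p = 0.119). The receptor for G-CSF was present on both sides of the step. Csf3r stood at 259.6 and 289 CPM in Aged MPP3 and 354 and 333 CPM in Aged GMP (a log2 fold change of 0.32, SE 0.10, adjusted p = 0.00831), the smallest change of a called receptor. It did not pass with DESeq2's size factors (adjusted p = 0.022), without a filter (0.0152) or with only the 4 libraries (0.0191). Nor did it pass when any 1 of the 4 libraries was left out (log2 fold changes of 0.13 to 0.28). Il3ra rose by 1.47 (adjusted p = 0.00554). This did not pass with DESeq2 (adjusted p = 0.0479) or without any 1 of the 4 libraries (log2 fold changes of 1.31 to 1.39). Il6ra rose from 17.5 and 15.8 CPM to 63.3 and 63.1 CPM (a log2 fold change of 1.92, SE 0.17, adjusted p = 3.43e-09), whereas its signalling partner Il6st did not pass (adjusted p = 0.0109) but was called higher with DESeq2 (0.00101), with only the 4 libraries (0.00275) and with the replicate block (0.00812). Ifngr1, the ligand-binding chain of the interferon-gamma receptor, rose from 139.5 and 157 CPM to 847 and 845 CPM (a log2 fold change of 2.51, SE 0.08, adjusted p = 4.55e-16) and Ifngr2 by 0.85. The receptors for TNF, Tnfrsf1a and Tnfrsf1b, rose by 1.09 and 1.10, and Fcer1g, the signalling chain of Fc receptors, by 2.79 on the log2 scale. Il1r1, the receptor for interleukin-1, went from 104 and 106 CPM to 4.39 and 4.63 CPM (a log2 fold change of -4.54, SE 0.22, adjusted p = 2.75e-13). Il1rl1, the receptor for interleukin-33, fell by 3.21 and Il17ra by 0.90 on the log2 scale. Epor stood at 1.41 and 1.53 CPM in Aged MPP3 and at 0 in both GMP libraries.

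The later equipment of the phagocyte was uneven. All 6 tested subunits of the NADPH oxidase, the enzyme of the respiratory burst, were higher in Aged GMP, against 21.4% of all genes (median log2 fold change 1.82). Ncf1, a cytosolic subunit, led with 29.6 and 31.1 CPM in Aged MPP3 and 523 and 553 CPM in Aged GMP (a log2 fold change of 4.15, SE 0.15, adjusted p = 1.27e-15). Cybb, the catalytic subunit, stood at 8.17 and 9.48 CPM in Aged MPP3 and 116 and 141 CPM in Aged GMP (a log2 fold change of 3.87, SE 0.28, adjusted p = 1.42e-10). Of 23 genes of later granules and of neutrophils, 10 were higher, 6 were lower and 7 did not pass (median log2 fold change 0.66). Over all genes 21.4% were higher and 22.2% were lower, so the share of lower members was near that of all genes. Hp (haptoglobin) rose from 11.8 and 12.3 CPM to 607 and 676 CPM (a log2 fold change of 5.73, SE 0.21, adjusted p = 2.59e-15), Fcnb, a ficolin, by 5.40 and Ltb4r1, the receptor for leukotriene B4, by 4.57. Among the 6 lower members were 3 genes of the secondary granules. Ltf (lactoferrin) stood at 29.8 and 49.5 CPM in Aged MPP3 and 2.42 and 3.47 CPM in Aged GMP (a log2 fold change of -3.74, SE 0.46, adjusted p = 6.79e-07). Ngp (neutrophilic granule protein) stood at 64.7 and 105 CPM in Aged MPP3 and 3.40 and 8.19 CPM in Aged GMP (a log2 fold change of -3.87, SE 0.31, adjusted p = 1.25e-09). Camp (cathelicidin) stood at 14.1 and 14.4 CPM in Aged MPP3 and 0.626 and 1.16 CPM in Aged GMP (a log2 fold change of -3.98, SE 0.45, adjusted p = 1.44e-07). These 3 genes, which mark neutrophils more mature than either gate should hold, were thus above their GMP level in both Aged MPP3 libraries.

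Genes of monocytes and macrophages rose nearly as a block: 16 of 20 tested were higher, 0 were lower and 4 did not pass, with a median log2 fold change of 3.47 (3.50 with 1 member at its bound). Ly6c2, part of the Ly6C antigen of monocytes, rose from 29.5 and 33.6 CPM to 2023 and 2551 CPM (a log2 fold change of 6.18, SE 0.21, adjusted p = 8.56e-16), although its near copy in the genome makes the split of reads uncertain. F13a1, the clotting factor subunit carried by monocytes, rose from 23.6 and 23.1 CPM to 1350.2 and 1459 CPM (a log2 fold change of 5.91, SE 0.25, adjusted p = 2.23e-14). Clec12a, an inhibitory lectin of myeloid cells, rose from 17.5 and 14.3 CPM to 666 and 748 CPM (a log2 fold change of 5.47, SE 0.13, adjusted p = 1.85e-17). The summed level of the list went from 258 and 263 CPM to 5988 and 6906 CPM. Genes of adhesion and chemotaxis were mixed, with 8 of 17 higher and 4 lower (median 0.37), against 21.4% and 22.2% of all genes. Fewer were higher without Aged GMP replicate 2 or either MPP3 library. Ccr2, the receptor that draws monocytes from marrow, rose from 5.83 and 6.93 CPM to 102 and 117 CPM (a log2 fold change of 4.10, SE 0.30, adjusted p = 1.87e-10). Cxcr4, which holds cells in the marrow, rose by 1.63, and the integrin chain Itgal by 1.25 on the log2 scale. Itgb7 fell by 1.01, and the integrin chain Itga9 went from 10.2 and 8.60 CPM to 0 in both GMP libraries.

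Eosinophil genes were among the largest rises of the comparison. Prg2, which encodes major basic protein, the main protein of the eosinophil granule, had 4 and 3 counts in the Aged MPP3 libraries and stood at 2017 and 3005 CPM in Aged GMP (a log2 fold change of 13.27, SE 0.59, adjusted p = 3.58e-13). Epx, the eosinophil peroxidase gene that lies with Mpo within 82.0 kb of chromosome 11, had 3 and 0 counts and stood at 983 and 1282 CPM, at least 12.40 higher on the log2 scale against a floor of 3 counts per library. Prg3, beside Prg2 on chromosome 2, went from 0 in both MPP3 libraries to 114 and 164 CPM, a log2 difference of at least 9.37. The ribonuclease Ear1 went from 0 to 53.2 and 98.1 CPM (at least 8.49), and Ear7, of the same family of near-identical genes whose reads may be divided, reached 39.02 and 75.2 CPM (at least 8.09). In each of these 5 genes the second GMP library was above the first. Prg2 was thus near 0 in Aged MPP3 but averaged 44.2 CPM in Aged MPP2, 143 CPM in Aged CLP and 87.6 CPM in Young MPP3.

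Other granule genes of these branches moved in both directions. Of 19 genes of basophils, mast cells and eosinophils tested, 9 were higher and 5 were lower (median 1.33, or 1.53 with 8 members at their bounds). Over all genes 21.4% were higher and 22.2% were lower, so the share of lower members was near that of all genes. The summed level of the list was 552 and 580 CPM in Aged MPP3 and 3917 and 5291 CPM in Aged GMP. Prss34, a basophil protease, rose from 0.67 and 1.24 CPM to 98.7 and 140.0 CPM (a log2 fold change of 6.97, SE 0.38, adjusted p = 6.44e-10). Hdc, the enzyme that makes histamine, rose from 14.5 and 12.9 CPM to 502 and 447 CPM (a log2 fold change of 5.11, SE 0.30, adjusted p = 4.47e-12). Several genes of connective tissue mast cells had counts only on the MPP3 side of this comparison. The chymase gene Cma1 stood at 117 and 122 CPM, the tryptase gene Tpsb2 at 98.5 and 109.9 CPM and Mcpt4, a further chymase gene, at 12.5 and 13.2 CPM in Aged MPP3, and all 3 had no count in either GMP library. Against the floor of 3 counts these are log2 differences of -8.80, -8.60 and -5.59 or lower. The call for Cma1 was lost with DESeq2's Wald test (adjusted p = 0.177). Among the 8 Aged fractions Cma1 was highest in MPP3, followed by MPP2 with 3.73 CPM, and it was at 108 CPM in Young MPP3. Neighbouring genes did not move together here. On chromosome 14, 5 genes of 1 family lie within 321 kb: Cma1, Mcpt4 and Gzmb (granzyme B, 28.3 and 29.9 CPM to 7.07 and 4.72 CPM) fell, while Mcpt8, a basophil protease (20.3 and 20.3 CPM to 57.6 and 75.8 CPM), and Ctsg rose. On chromosome 17, Prss34 and Tpsb2 lie within 70.7 kb and went opposite ways.

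**Figure D3:**
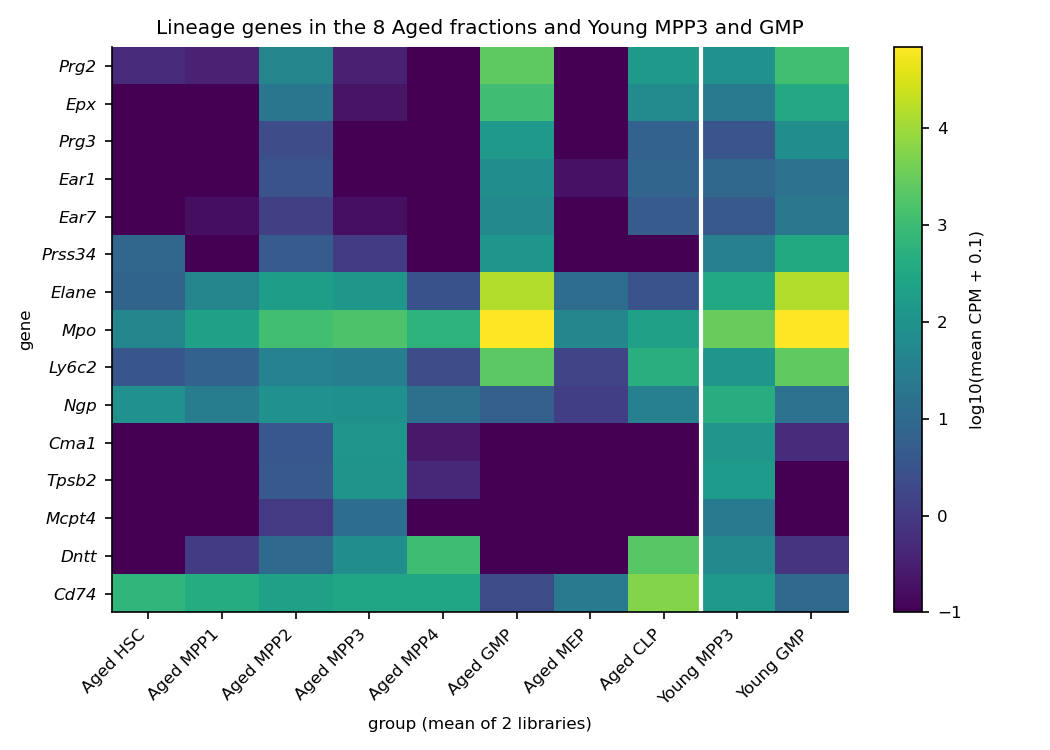
Rows are 15 genes and columns the 8 Aged fractions and, right of the white line, Young MPP3 and Young GMP; colour is log10 of the mean CPM of 2 libraries plus 0.1. The eosinophil genes Prg2, Epx, Prg3, Ear1 and Ear7 are bright in Aged GMP and dark in Aged MPP3 but not in Young MPP3 or Aged MPP2, and Cma1, Tpsb2 and Mcpt4 are bright in MPP3 and dark in GMP at both ages.

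Most members of the 2 lists of stem and multipotent genes were lower in Aged GMP, against 22.2% of all genes, and no member of either was called higher. Of 28 transcription factors of stem and multipotent cells, 23 were lower, 0 were higher and 5 did not pass (median log2 fold change -2.13). Mecom, a zinc finger regulator of stem cells, went from 51.4 and 54.4 CPM to 0.447 and 0.891 CPM (a log2 fold change of -6.28, SE 0.28, adjusted p = 4.89e-14). Hlf, a leucine zipper factor of stem cells, went from 267 and 208 CPM to 8.41 and 7.75 CPM (a log2 fold change of -4.88, SE 0.21, adjusted p = 2.04e-14). Meis1, the cofactor of HOX proteins, went from 258 and 254 CPM to 18.8 and 17.3 CPM (a log2 fold change of -3.83, SE 0.14, adjusted p = 1.47e-15). The homeobox gene Nkx2-3 went from 29.9 and 36.2 CPM to 0 in both GMP libraries, a log2 difference of -6.95 or lower, and the list members Tcf15 and Fhl1 also had no count in Aged GMP. Of 2 closely related ETS factors, Erg fell (79.1 and 58.6 CPM in Aged MPP3 and 23.6 and 19.6 CPM in Aged GMP, adjusted p = 5.64e-07). The other, Fli1, did not pass (171 and 178 CPM in Aged MPP3 and 194 and 198 CPM in Aged GMP, adjusted p = 0.289). At the cell surface, 19 of 20 genes were lower and 1 did not pass (median log2 fold change -3.64, or -3.29 with 4 members at their bounds). Procr, which encodes the stem cell antigen EPCR, went from 37.04 and 36.5 CPM to 1.07 and 0.356 CPM (a log2 fold change of -5.67, SE 0.29, adjusted p = 3.22e-12). Angpt1, which encodes angiopoietin-1, went from 351 and 428 CPM to 13.7 and 15.2 CPM (a log2 fold change of -4.75, SE 0.23, adjusted p = 2.17e-13). Esam and Robo4, both adhesion or guidance receptors shared with endothelium, went from 79.1 and 79.03 CPM to 0 and 0.267 CPM and from 26.5 and 28.4 CPM to 0.

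The largest falls outside the lists were in genes without a count in Aged GMP. Tgm2 (a transglutaminase, 63.7 and 64.8 CPM in Aged MPP3), Plscr2 (40.9 and 41.3 CPM), Crispld1 (38.9 and 35.2 CPM), Npdc1 (25.7 and 26.8 CPM), Slc16a12 (25.8 and 26.4 CPM) and Abca4 (18.9 and 22.7 CPM) were all at 0 in both Aged GMP libraries. Each of these 6 was highest in HSCs among the Aged fractions, whereas Epb4.1l3 (38.3 and 43.96 CPM) and Tmem121 (23.7 and 20.9 CPM), also at 0 in Aged GMP, were highest in MPP4 and CLP. Among the largest rises outside the lists were F10 (clotting factor X, 0.335 and 0.437 CPM to 64.1 and 71.4 CPM), Olr1 (a scavenger receptor, 0.335 and 0.292 CPM to 39.5 and 39.7 CPM), Mefv (pyrin, 0.603 and 0.583 CPM to 63.9 and 66.1 CPM) and the integrin chain Itga1 (0.067 and 0 CPM to 24.2 and 29.03 CPM). Cldn15, a claudin, went from 1.34 and 1.75 CPM to 153 and 161 CPM (a log2 fold change of 6.67, SE 0.42, adjusted p = 2.57e-11), Rab7b, a small GTPase, from 0.737 and 0.437 CPM to 50.7 and 55.1 CPM, and Mogat2 from 0 and 0.51 CPM to 23.00 and 28.3 CPM.

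Genes of the lymphoid, dendritic, megakaryocytic and erythroid branches were more often lower than higher, where 22.2% of all genes were lower and 21.4% higher. In the lymphoid list 6 of 19 tested were lower, 1 was higher and 12 did not pass. Its median was -0.87, or -0.38 with 6 members at their bounds and 5 left out that have no fold or bound. Dntt, the enzyme that adds bases to antigen receptor genes, stood at 72.4 and 72.8 CPM in Aged MPP3 and at 0 in both GMP libraries, and Jchain, which joins immunoglobulin chains, at 24.2 and 21.6 CPM and 0. The 1 that was higher, the surrogate light chain gene Igll1, stood at 0 in Aged MPP3 and at 1.25 and 1.42 CPM in Aged GMP, and the defining genes Rag1, Ebf1 and Pax5 had no count in any of the 4 libraries. In the dendritic list 9 of 17 were lower and 0 were higher (median -3.64, or -1.53 with 4 at their bounds). Its leading gene was Cd74, the invariant chain of MHC class II, at 244 and 285 CPM in Aged MPP3 and 0.805 and 3.21 CPM in Aged GMP (a log2 fold change of -7.04, SE 0.39, adjusted p = 2.05e-12). The class II chain genes H2-Aa, H2-Ab1 and H2-Eb1 and their activator Ciita fell by 4.42, 2.84, 5.50 and 5.28 on the log2 scale, whereas the defining dendritic genes Siglech and Batf3 were near or at 0 in all 4 libraries. The summed level of this list was 886 and 953 CPM in Aged MPP3 and 203 and 223 CPM in Aged GMP. In the megakaryocyte list 9 of 15 were lower (median -2.61, or -1.66 with 2 at their bounds), and 1 was higher. F2r, a thrombin receptor, went from 126 and 127 CPM to 1.79 and 2.94 CPM (a log2 fold change of -5.74, SE 0.34, adjusted p = 4.05e-12). Clu (clusterin) rose from 0.268 and 0.292 CPM to 7.25 and 8.64 CPM (a log2 fold change of 4.79, SE 0.44, adjusted p = 7.26e-09). In the erythroid list 9 of 20 were lower (median -2.88, or -2.46 with 3 at their bounds), at a summed level of 1019 and 984 CPM in Aged MPP3 and 106 and 60.6 CPM in Aged GMP. Car2, a carbonic anhydrase, went from 677 and 723 CPM to 28.5 and 19.3 CPM (a log2 fold change of -4.87, SE 0.13, adjusted p = 1.85e-17). Gata1, the erythroid and eosinophil factor, was the 1 member called higher, from 3.48 and 2.33 CPM to 5.73 and 5.70 CPM (a log2 fold change of 0.96, SE 0.26, adjusted p = 0.00344). It did not pass with only the 4 libraries (adjusted p = 0.02). Nor did it pass without Aged GMP replicate 1, Aged GMP replicate 2 or Aged MPP3 replicate 2 (log2 fold changes of 0.84, 0.84 and 0.59).

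Some markers of cells that neither gate should hold had no count, and others were well above 0. Of 15 T and NK genes, 5 had no count in either Aged MPP3 library and 9 had none in either Aged GMP library. These numbers were 0 and 6 of 13 for resident macrophages and 4 and 10 of 12 for stroma and endothelium. Of 15 T and NK genes tested, 4 were lower and 1 was higher in Aged GMP, against 22.2% and 21.4% of all genes. The median was -0.61, or -1.90 with 4 at their bounds, and fewer were lower without Aged GMP replicate 1 or Aged MPP3 replicate 1. Cd3e, Cd3g and Cd3d had no count in any of the 4 libraries. Lck, by contrast, was among the lower members and averaged 26.5 CPM in Aged MPP3 and 2.19 CPM in Aged GMP. The 1 that rose was Nkg7, a cytotoxic granule protein gene, from 207 and 211 CPM to 984 and 1056 CPM (a log2 fold change of 2.29, SE 0.11, adjusted p = 3.47e-13), and it made up most of that list's sum in both fractions. Of 13 genes of resident macrophages, 9 were lower and 2 were higher (median -3.36, or -2.27 with 6 at their bounds), with a summed level of 77.1 and 85.0 CPM in Aged MPP3 and 148 and 183 CPM in Aged GMP. The complement genes C1qb and C1qc stood at 6.23 and 6.05 CPM and 3.89 and 5.76 CPM in Aged MPP3 and at 0 in Aged GMP. Vcam1 and Slc40a1 (ferroportin) were the 2 that rose, by 3.75 and 2.51 on the log2 scale. Of 10 stromal and endothelial genes tested, 5 were lower and 0 were higher (median -4.31, or -2.25 with 4 at their bounds, and 3 lower without either GMP library), and their summed level was 97.7 and 102.0 CPM in Aged MPP3, of which Pdgfrb held 84.1 and 87.2 CPM, and 21.5 and 16.7 CPM in Aged GMP. The part of these cells in the falls was not tested.

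Genes of protein folding and secretion in the endoplasmic reticulum (ER), through which granule proteins pass, rose together. Of 30 tested, 28 were higher, against 21.4% of all genes, 1 was lower and 1 did not pass. Their median log2 fold change was 1.39, and their summed level went from 7787 and 8320 CPM to 23646 and 23528 CPM. Hspa5 (BiP), the main ER chaperone, went from 619.8 and 757 CPM to 2709.8 and 2524 CPM (a log2 fold change of 1.93, SE 0.10, adjusted p = 4.2e-13). Hsp90b1 (GRP94), its counterpart of the HSP90 family, went from 387 and 403 CPM to 1516 and 1551 CPM (a log2 fold change of 1.96, SE 0.08, adjusted p = 1.03e-14). Sdf2l1, a partner of BiP, had the largest rise of the list, from 112 and 107 CPM to 576 and 579 CPM (a log2 fold change of 2.40, SE 0.10, adjusted p = 1.03e-14). Xbp1, a transcription factor of the ER stress response, rose by 1.91 (SE 0.10, adjusted p = 9.89e-13). Genes of the stress response proper did not all follow. Dnajb9 fell by 1.19 (SE 0.14, adjusted p = 1.72e-07), and Ddit3 (CHOP) stood at 6.23 and 7.14 CPM in Aged MPP3 and 5.73 and 6.77 CPM in Aged GMP (adjusted p = 0.73). The ER stress response element, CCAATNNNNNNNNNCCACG on either strand, lies within 250 bases before the start of 8 of the 25 list members with an entry (Hspa5, Hsp90b1, Calr, Canx, Pdia6, Dnajc3, Creld2 and Ero1lb, listed by RefSeq as Ero1b), against 0.130% of all symbols. The stretches of Hspa5 (chr2:34772010-34772058, plus) and Hsp90b1 (chr10:86705518-86705671, minus, with 2 matches) are given with the element in capitals.
Hspa5: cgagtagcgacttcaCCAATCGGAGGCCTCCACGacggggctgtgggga
Hsp90b1: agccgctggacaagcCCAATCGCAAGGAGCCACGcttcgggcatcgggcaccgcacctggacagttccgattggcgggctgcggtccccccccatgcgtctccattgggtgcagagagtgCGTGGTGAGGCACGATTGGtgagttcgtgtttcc

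Interferon-response genes were lower in Aged GMP. Of 40 tested, 30 were lower, against 22.2% of all genes, 1 was higher and 9 did not pass, with a median log2 fold change of -1.30. Rtp4, a chaperone of receptors, went from 55.5 and 53.5 CPM to 2.51 and 2.85 CPM (a log2 fold change of -4.34, SE 0.14, adjusted p = 5.42e-16). Oas2 and Oas3, which sense double-stranded RNA, went from 9.98 and 11.01 CPM to 0.805 and 0.356 CPM and from 66.4 and 59.3 CPM to 4.30 and 4.27 CPM (a log2 fold change of -3.87, SE 0.17, adjusted p = 5.91e-14). Ifit1, which binds viral RNA ends, went from 12.6 and 13.2 CPM to 2.86 and 3.38 CPM (a log2 fold change of -2.04, SE 0.26, adjusted p = 1.01e-06). The list was not uniform. Irf1, a transcription factor of the interferon response, stood at 107 and 131 CPM in Aged MPP3 and 108 and 122 CPM in Aged GMP. The guanylate-binding protein gene Gbp3 was higher in Aged GMP, from 88.2 and 88.5 CPM to 146 and 162 CPM. That call was lost without any 1 of the 4 libraries (adjusted p = 0.0177 to 0.0588). Falls in the response genes thus stood beside a rise of the receptor chain Ifngr1. The interferon-stimulated response element, searched as GAAA, any 2 bases and GAAA on either strand, lies within 250 bases before the start of 15 of the 27 list members with an entry, against 3.46% of all symbols. It was found in genes that fell and in Stat2, Bst2, Ifitm2, Gbp3 and Gbp7, which did not. Capitals mark it in Oas3 (chr5:120777710-120777749, minus) and Ifit1 (chr19:34640770-34640828, plus, with 2 matches, read on the opposite strand).
Oas3: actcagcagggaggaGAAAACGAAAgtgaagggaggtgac
Ifit1: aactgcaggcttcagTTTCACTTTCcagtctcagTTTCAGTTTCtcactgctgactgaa

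Immediate early genes, which cells transcribe within minutes of a stimulus, were among the largest differences. Of 23 tested, 18 were lower in Aged GMP, against 22.2% of all genes, 0 were higher and 5 did not pass. The median log2 fold change was -3.08 (-2.49 with 2 members at their bounds). Their summed level was 13563 and 16004 CPM in Aged MPP3 and 2822 and 2460 CPM in Aged GMP. Nr4a1, an orphan nuclear receptor, stood at 273 and 381 CPM in Aged MPP3 and 1.07 and 0.98 CPM in Aged GMP (a log2 fold change of -8.30, SE 0.30, adjusted p = 5.29e-15). Fos, a subunit of AP-1, stood at 4001 and 4384 CPM in Aged MPP3 and 796 and 648 CPM in Aged GMP (a log2 fold change of -2.54, SE 0.24, adjusted p = 1.42e-08). Atf3, a stress factor, stood at 24.4 and 41.3 CPM in Aged MPP3 and 0.537 and 0 CPM in Aged GMP (a log2 fold change of -6.89, SE 0.48, adjusted p = 5.91e-10). All 18 that were called moved downwards. The cAMP response element TGACGTCA was found before the start of 2 of the 19 members with an entry, Dusp1 and Btg2 (1.77% of all symbols).

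Of 43 S phase genes 10 were higher and 11 were lower and 22 did not pass, shares near those over all genes (21.4% and 22.2%), with a median log2 fold change of -0.10 and summed levels of 10270 and 10720 CPM in Aged MPP3 and 9870 and 9871 CPM in Aged GMP. Rrm2, a subunit of ribonucleotide reductase, rose by 0.85 (SE 0.08, adjusted p = 4.02e-09), and Pola1, a subunit of DNA polymerase alpha, fell by 1.02 (SE 0.17, adjusted p = 2.28e-05). Of 54 G2 and M phase genes 29 were higher and 2 were lower (median 0.45), with Cenpe, a kinetochore motor, rising by 1.15 and Ube2c, which loads ubiquitin for the anaphase-promoting complex, by 0.96 on the log2 scale. Of the 54, 18 were higher without Aged MPP3 replicate 1, and 19 without Aged GMP replicate 2, and of the S phase genes 4 to 6 were higher without any 1 library and 19 were lower with DESeq2. Of 19 brakes and G1 cyclins 4 were higher (21.1%, near the 21.4% of all genes) and 6 were lower, against 22.2% of all genes (median 0.03). Fewer were higher without any 1 library. Cdkn1c (p57), a brake on stem cell division, went from 11.7 and 12.6 CPM to 0.268 and 0.178 CPM, and Cdkn1a (p21) fell by 1.23, while Cdk6 rose by 0.67 (adjusted p = 0.0102 without Aged MPP3 replicate 2). Of 30 ribosome biogenesis genes 14 were higher and 2 were lower (median 0.27, and 6 to 8 higher without any 1 library). Nolc1, a nucleolar chaperone, stood at 177 and 229.9 CPM in Aged MPP3 and 379 and 383 CPM in Aged GMP (a log2 fold change of 0.91, SE 0.11, adjusted p = 5.96e-07). Genes of TGF-beta and BMP signalling, a pathway that restrains stem cells, were mostly lower. Of 26 tested, 16 were lower, against 22.2% of all genes, and 1, the ligand gene Tgfb1, was higher (median -1.01, or -1.06 with 1 at its bound). The call for Tgfb1 was lost with DESeq2's size factors (adjusted p = 0.0109) and with only the 4 libraries (0.0273). It was also lost without either GMP library (log2 fold changes of 0.40 and 0.49) and without Aged MPP3 replicate 2 (0.22). The coreceptor Eng (endoglin) went from 148 and 148 CPM to 35.2 and 34.5 CPM (a log2 fold change of -2.08, SE 0.09, adjusted p = 2.54e-14) and Tgfbr3 from 21.2 and 22.02 CPM to 1.70 and 1.16 CPM. The target Id3 went from 7.84 and 11.9 CPM to 0 in both GMP libraries.

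**Figure D4:**
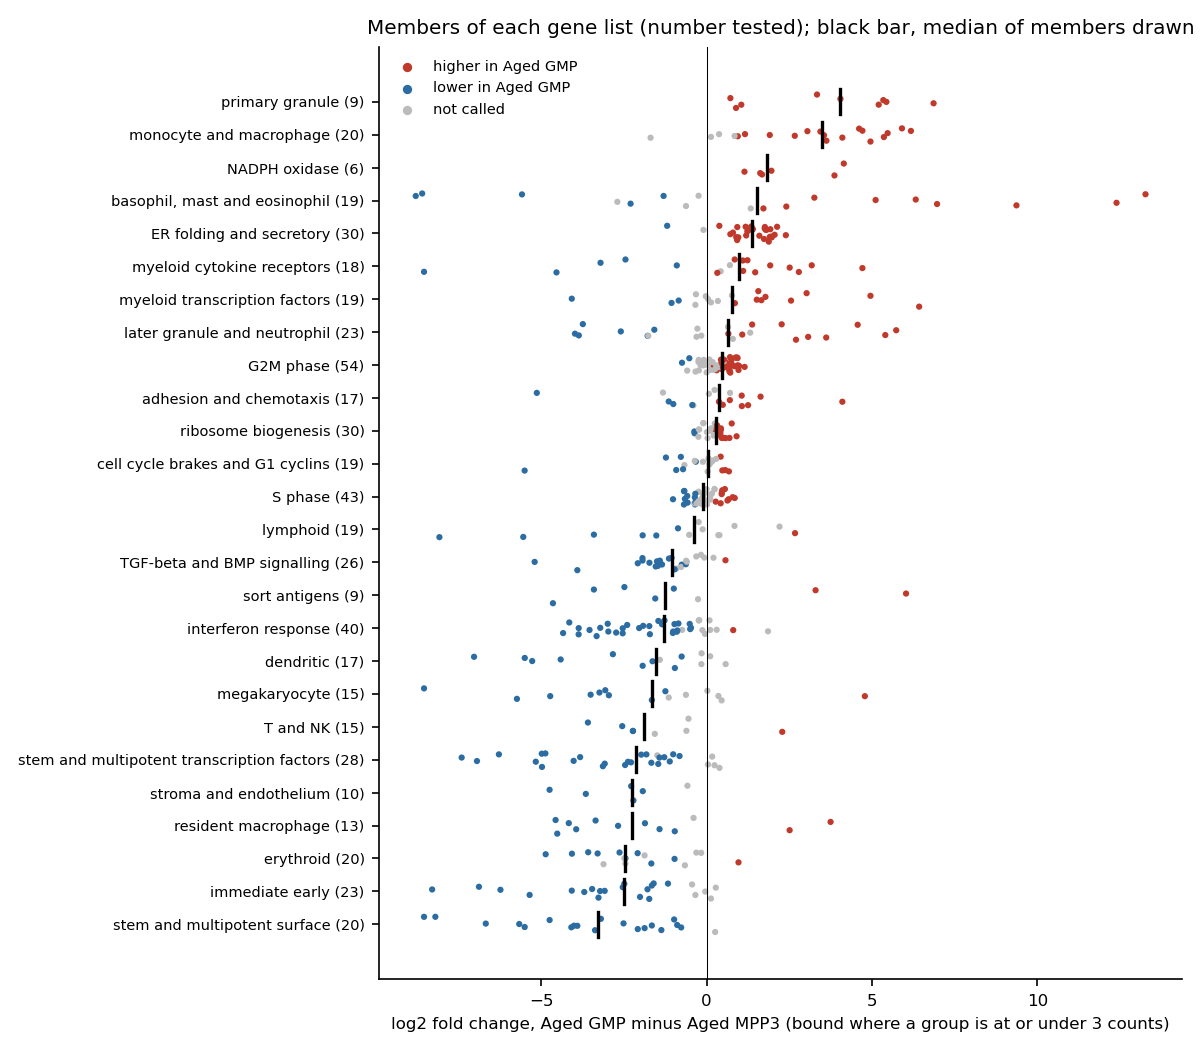
Each point is the log2 fold change (x axis, Aged GMP minus Aged MPP3) of 1 member of the gene list named on the y axis, or its bound where 1 fraction was at or under 3 counts in both libraries. Red marks higher, blue lower and grey not called at an adjusted p of 0.01, the number tested is in brackets and the black bar is the median. Primary granule, monocyte and macrophage, NADPH oxidase and ER folding genes lie to the right, and stem, immediate early and interferon genes to the left.

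A step here is the log2 level in GMP minus that in MPP3, so that for a gene that falls a larger step is a lesser fall. To ask whether the step itself departed from that in Young mice, the difference between Aged GMP and Aged MPP3 was tested against the difference between Young GMP and Young MPP3. This difference was called larger in Aged for 1319 genes (9.32%, or 810 genes without Aged GMP replicate 1) and smaller for 1463 (10.3%), 19.7% in either direction, and this test shares the 4 Aged libraries with the comparison itself. Of the 9 primary granule genes, 0 had a step called larger and 1 a step called smaller, Ctsc, by -0.94 (SE 0.15, adjusted p = 5.66e-05). Mpo stood at 2840.4 and 3076 CPM in Young MPP3 and 69104 and 68924 CPM in Young GMP, and its difference between the ages, 0.89 (SE 0.54, adjusted p = 0.228), did not pass. Of 23 genes of later granules and of neutrophils, 9 had a larger step in Aged and 0 the reverse. Their summed level was 2529 and 2549 CPM in Young MPP3 and 1033 and 1169 CPM in Aged MPP3. In GMPs it was 3883 and 3756 CPM in Young and 3356 and 3729 CPM in Aged. The sum was thus lower in Aged MPP3 and not higher in Aged GMP. Cebpe also had a larger step in Aged, by 2.75 (SE 0.44, adjusted p = 6.76e-05). It stood at 7.15 and 6.28 CPM in Young MPP3 and 87.5 and 84.3 CPM in Young GMP. The S phase list showed the reverse, with 32 of 43 steps smaller in Aged and 0 larger, beside summed levels of 7388 and 7591 CPM in Young MPP3 and 11972 and 12227 CPM in Young GMP. Its lowest levels were thus in Young MPP3 and its highest in Young GMP, with both Aged fractions between them. Ribosome biogenesis genes had 14 of 30 steps smaller and 1 larger. Among immediate early genes 14 of 23 steps were called larger and 0 smaller, which here means a fall that went less far. Egr1 was at 1663 and 1889 CPM in Young MPP3 and at 0.214 and 0.484 CPM in Young GMP, against 69.00 and 83.01 CPM in Aged GMP, a difference of 8.19 (SE 0.30, adjusted p = 1.31e-13).

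A larger step in Aged was called for the eosinophil genes Ear1, Epx, Prg2 and Prg3, which were higher in GMPs than in MPP3 at both ages but stood above 3 CPM in both Young MPP3 libraries and at or near 0 in both Aged MPP3 libraries. Prg2 was at 90.3 and 84.8 CPM in Young MPP3 and 1272 and 1137 CPM in Young GMP, and its step was larger in Aged by 9.49 (SE 0.70, adjusted p = 2.42e-08). In the other direction, Cd74 was at 133 and 146 CPM in Young MPP3 and 10.6 and 10.2 CPM in Young GMP, below both Aged MPP3 libraries and above both Aged GMP libraries, and its fall went further in Aged, by a log2 difference of -3.29 (SE 0.52, adjusted p = 5.89e-05). Trim47, a ubiquitin ligase gene, also fell further in Aged, with a difference of -2.55 (SE 0.38, adjusted p = 3.86e-05).

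**Figure D5:**
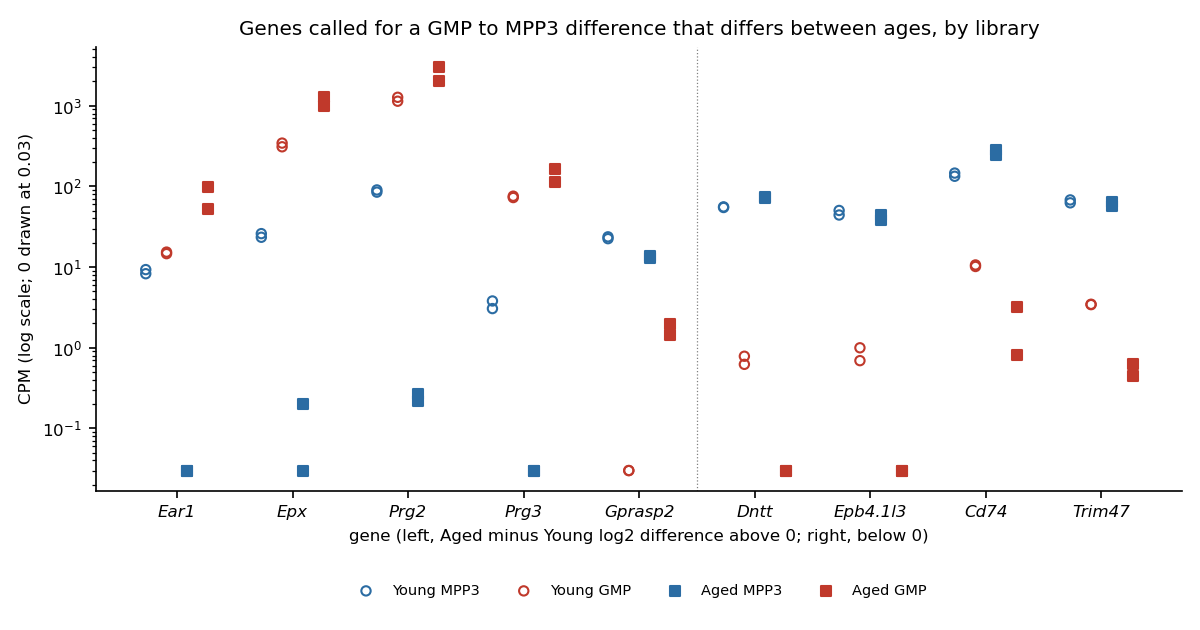
CPM (y axis, log scale, 0 drawn at 0.03) in each library of Young MPP3 and GMP (open circles) and Aged MPP3 and GMP (filled squares), MPP3 in blue and GMP in red, for 5 genes whose log2 difference between GMP and MPP3 was called larger in Aged than in Young and 4 for which it was called smaller, chosen by fitted values that depend on the prior count for genes at 0. The 4 eosinophil genes at the left stand above 3 CPM in Young MPP3 and at or near 0 in Aged MPP3, and Dntt and Epb4.1l3 are at 0 in Aged GMP.

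The same difference was set against the steps of the other branches in Aged mice, from MPP2 to MEP (megakaryocytes and erythrocytes) and from MPP4 to CLP (lymphocytes). It was larger than the MPP2 to MEP step for 3216 genes (22.7%) and smaller for 2328 (16.4%), 39.2% in either direction, and larger than the MPP4 to CLP step for 2367 genes (16.7%) and smaller for 2128 (15%), 31.8% in either direction. Against MEP, the primary granule list was larger in 9 of 9 and the NADPH oxidase list in 6 of 6. The ER list was larger in 25 of 30 and smaller in 1, and ribosome biogenesis was smaller in 24 of 30 and larger in 0. At the far end Ermap, an erythroid membrane gene, stood at 858 and 946 CPM in Aged MEP and at 0 in Aged GMP (adjusted p = 4.26e-10), and Cldn13 at 353 and 345 CPM and 0. Pklr (pyruvate kinase of erythrocytes), Tspo2 and Acsl6 were at 189 and 191, 121 and 124, and 56.2 and 53.5 CPM in Aged MEP and at 0 in Aged GMP. No bound away from 0 can be given for these 3, and each lost its call without 1 Aged MPP3 library (adjusted p = 1), Acsl6 also with DESeq2 (0.301). Prg2, Epx, Prg3, Ear1 and Ear7 marked the other end, since they rose into GMP, while Prg2 averaged 44.2 CPM in Aged MPP2 and 0 in Aged MEP.

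Against CLP, the primary granule list was larger in 8 of 9 and smaller in 0, whereas of 20 monocyte and macrophage genes 6 were larger and 5 were smaller. Irf8 averaged 4714 CPM in Aged CLP and 992 CPM in Aged GMP. The ER list was larger in 20 of 30 and smaller in 2, and ribosome biogenesis in 25 of 30 and 0. Immediate early genes were larger in 7 and smaller in 6 of 23. Rises relative to CLP were called in Tnfsf13 (the ligand APRIL), at 32.5 and 29.5 CPM in Aged MPP3, 83.05 and 92.5 CPM in Aged GMP, 15.95 and 16.1 CPM in Aged MPP4 and 0 and 0.0743 CPM in Aged CLP (adjusted p = 3.95e-13), and in Mrgpra2b, Slc22a4, Cracr2b and Dmkn, which reached 41.8 and 48.4, 32.2 and 31.3, 35.3 and 32.5 and 50.4 and 52.99 CPM in Aged GMP. For Dmkn no bound away from 0 can be given, and its call was lost with only the libraries of the contrast (adjusted p = 0.0105). Mrgpra2b has a close copy, so its reads may be divided. The B cell gene Cd79a marked the opposite end, at 413 and 415 CPM in Aged CLP and 0 in Aged GMP, with Jchain at 53.8 and 92.2 CPM. Cd209a and Tubb2b, also high in Aged CLP, lost their calls with DESeq2 (adjusted p = 0.248 and 0.202). Cd209a also lost its call with only the libraries of the contrast (adjusted p = 0.0197) and without Aged MPP3 replicate 2 (log2 difference -14.17). Tubb2b also lost its call without Aged MPP3 replicate 1 (log2 difference -11.92) and without either Aged GMP library (-19.70 each).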

How the data were processed

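RNA was sequenced from sorted mouse hematopoietic fractions after low-input cDNA amplification, with single reads and without molecular identifiers. The authors aligned reads to mm10 with TopHat2 2.0.13 and Bowtie2 2.1.0, per the submitters' processing notes, which also name StringTie and DESeq2, and deposited raw counts per gene symbol. Whether strand was used is not given in the sources used here. The deposited count table holds 24421 genes, of which 27 had names turned into dates. The authors' normalized table and their comparison tables of fold changes and p-values were not used.

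Counts were tested with edgeR 4.0.16 (R 4.3.3), with its filter on low counts, TMM factors, and quasi-likelihood fits over all 32 libraries with 1 coefficient for each of 16 groups, so that 16 residual degrees of freedom gave 1 estimate of the spread. Benjamini-Hochberg adjustment covered all 14154 genes tested, and an adjusted p under 0.01 was called. Each SE is the size of the fitted log2 fold change divided by the square root of the test's F, and was not estimated separately. The 3 differences between steps were contrasts of the same fit. Where both libraries of a fraction held 3 counts or fewer, only a bound against 3 counts per library is given, and fold changes are otherwise fitted values. The script was tested on simulated data. Total counts per library set the precision, and 3 counts correspond to 0.201 to 0.268 CPM.

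Named genes were the 15 largest rises and falls among called genes that averaged 20 CPM or more in 1 fraction and whose libraries do not overlap, the 3 largest rises and falls of each of 26 gene lists, all members of 4 lists (sort antigens, primary granule, myeloid transcription factors, myeloid cytokine receptors), and 5 genes per direction in each difference. Predicted genes, names turned into dates and clustered histone genes were left out. Other genes (among them Rn45s, Hspa5, Hsp90b1, Ifit1, Fli1, Erg, Irf1, Hdc, Gzmb, Siglech and the Cd3 genes) were named after their values were seen. The comparison and the lists were chosen with earlier results of these data known. Gene positions are from GENCODE M21 (GRCm38), in which 23350 symbols matched directly and 669 through an older symbol, and promoters from RefSeq (GRCm38.p6). Alternatives were DESeq2's size factors, DESeq2 1.42.0, no filter, only the libraries of a contrast, the replicate number as a block, other thresholds and each library left out. A few genes that the rule would name are not reported here.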

Additional observations from a re-analysis of the deposited data

Results flagged for a closer look

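The step from MPP3 to GMP differed between Aged and Young mice for 9 genes named by rule, tested as the Aged difference minus the Young difference in edgeR's quasi-likelihood fit. Values are on the log2 scale, and a bound replaces the fitted value where a fraction was at or under 3 counts in both libraries.

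For the eosinophil genes the step was larger in Aged by at least 7.72 for Ear1 (adjusted p = 9.55e-06), at least 8.67 for Epx (adjusted p = 1.55e-06), 9.49 for Prg2 (adjusted p = 2.42e-08) and at least 4.94 for Prg3 (adjusted p = 6.58e-05). Epx stood at 23.4 and 25.96 CPM in Young MPP3 and 309.5 and 344 CPM in Young GMP, Ear1 at 8.26 and 9.30 CPM and 15.3 and 14.7 CPM, and Prg3 at 3.06 and 3.80 CPM and 72.7 and 75.6 CPM. In all 4 genes both Aged GMP libraries were above both Young GMP libraries, and both Aged MPP3 libraries were below both Young MPP3 libraries. The genes were chosen for the size of this difference, which favours such an order, and the share of all genes with it was not worked out. Gprasp2, a gene of receptor sorting, fell at both ages, and its fall went less far in Aged, with a difference of at least 3.81 (adjusted p = 5.45e-05). It was at 0 in both Young GMP libraries and at 1.97 and 1.42 CPM in Aged GMP, below 13.7 and 12.9 CPM in Aged MPP3.

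In the other direction, the difference for Dntt was -1.79 or lower (adjusted p = 3.43e-05), with 54.7 and 55.7 CPM in Young MPP3 and 0.784 and 0.622 CPM in Young GMP. That for Epb4.1l3 was -1.46 or lower (adjusted p = 0.000526), with 44.2 and 50.3 CPM in Young MPP3 and 0.998 and 0.691 CPM in Young GMP. Cd74 was at -3.29 (adjusted p = 5.89e-05) and Trim47 at -2.55 (adjusted p = 3.86e-05). Trim47 stood at 57.1 and 63.2 CPM in Aged MPP3, 0.447 and 0.623 CPM in Aged GMP, 62.5 and 67.95 CPM in Young MPP3 and 3.42 and 3.46 CPM in Young GMP.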

How the results depend on the processing

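Of the 6168 genes called, 5915 were called again with DESeq2's size factors, 6021 with DESeq2, 5957 without a filter, 5257 with only the 4 libraries and 4477 to 4915 with 1 library left out, each in the same direction. Left-out libraries gave 1803 to 2020 higher genes and 2789 to 3164 lower genes, and 810 to 1010 genes with a larger step in Aged. The lone library of a fraction was then assumed to vary like the other groups. A minimum size of 1 for the log2 fold change left 1013 higher and 2009 lower genes, 716 larger and 254 smaller steps in Aged than in Young, 1139 steps smaller than MPP2 to MEP and 930 larger than MPP4 to CLP. At an adjusted p under 0.05, 2162 steps were larger in Aged. DESeq2's size factors moved the median of all genes by -0.05. The libraries share replicate numbers, but a correlation of -0.00063 between their deviations does not show that the numbers pair them. With the number as a block 3049 genes were higher and 3133 lower, the paired fit moved no count by over 1.5 times, and single genes crossed the threshold both ways.

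Some uncalled genes changed sign. With 1 library left out, the log2 fold change of Klf4 ran from -0.11 to 0.11, that of Myc from -0.21 to 0.55 and that of Runx1 from -0.14 to -0.031. Runx1 was at -0.013 with DESeq2's size factors, -0.016 with DESeq2 and -0.00047 with only the 4 libraries. The cause was not tested. Il7r held counts in 1 of the 4 libraries only, so its fitted values of -4.96 to 0 with 1 library left out are no fold. Depth limits genes near 3 counts, for which at most a bound is given.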
